A study of Homo sapiens with 9 samples.

Results

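The genes examined were the members of the TNF ligand and TNF receptor superfamilies, taken by name: every probe that is not a control and whose gene name begins with TNFSF or TNFRSF and a number, or is TNF, LTA, LTB, FAS, FASLG, CD27, CD40, CD40LG, CD70 or NGFR. The rule gave 42 genes, 25 receptors and 17 ligands, of the 36618 genes named on the array, read by 55 of its 50598 probes. RNA came from HEK293 cells, a human embryonic kidney line, under steady-state conditions. The lines stably expressed HA-tagged MEK1, the kinase that phosphorylates ERK, as the WT form, the RASopathy-associated F53S form or the cancer-associated K57N form. Each line had 3 arrays from independent experiments, so n = 3 in every group below. All 3 lines, the WT control included, carried an HA-MEK1 transgene from a transfected pQCXIP plasmid and had been selected with puromycin. Each form was represented by a single line, so an effect of the mutation and another difference between lines cannot be told apart. The labels give HEK293 as the cell line of all arrays, although the source names of WT replicates 2 and 3 read HEK294 and HEK295.

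TNF superfamily ligands are trimeric proteins, made at the cell surface or released from it, that bind and cluster receptors of the TNF receptor superfamily. Receptors with a cytoplasmic death domain can recruit adaptors such as TRADD and FADD and caspases, whereas the others bind TRAF adaptors, and both kinds can activate NF-kB through IkB kinases. Decoy receptors bind a ligand without passing on its signal. Several members act mainly between immune cells, while FAS, the TRAIL receptors, the TNF receptor TNFRSF1A and the TWEAK receptor TNFRSF12A are found on many epithelial cells.

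Each signal was read by a 60-base probe, and the first 30 bases are shown for 8 members described below, among them the TNFRSF12A and TNFSF12 receptor and ligand pair, because they define which transcript sequence was measured. The probes of TNFRSF11B and TNFRSF10A are given by position only. Positions are those of the array annotation on hg19, and no annotation of exons or untranslated regions on that build was used here. The bases run 5′ to 3′ in lower case, with no part marked.
TNFRSF12A, plus strand, chr16:3072180-3072239: tcactcagatgtcctgaaattccaccacgg
NGFR, plus strand, chr17:47591978-47592037: tgtggaagggactaggagcactgtagtaaa
TNFRSF21, minus strand, chr6:47199483-47199542: gtccaatctgctctcaaggccttggtcctg
TNFRSF25, minus strand, chr1:6521245-6521304: cgagagggggtgaagacatttctcaacttc
TNFRSF4, minus strand, chr1:1146722-1146781: ttacgtatgccatgcatacctcctgccccg
TNFSF9, plus strand, chr19:6535866-6535925: cggtattgctatgttgccaaggttgtttac
TNFSF12, plus strand, chr17:7461108-7461167: cctcccttgagaattccctgtggattttta
TNFSF13, plus strand, chr17:7463468-7463709: atctgctgtatagccaggtcctgtttcaag
The TNFSF13 probe covers 242 bases of the genome with its 60 bases, so it crosses a splice junction. TNFSF12 and TNFSF13 are neighbors, and a transcript that reads through both genes is known, so that the TNFSF13 probe may also measure it.

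HEK293 cells expressed most of the receptors and few of the ligands above background. A probe was taken as measured in a line if the scanner software called it well above background, and a gene was tested if a probe passed on all 3 arrays of at least 1 line. By this rule 20 of the 42 members were tested, 16 of 25 receptors and 4 of 17 ligands. A further 10 members were well above background on some arrays, and 12 on none. All 7 receptors with a death domain were well above background on all 9 arrays: FAS, NGFR (the p75 neurotrophin receptor), TNFRSF1A, the TRAIL receptors TNFRSF10A and TNFRSF10B, TNFRSF21 (death receptor 6) and TNFRSF25 (death receptor 3). The ligands of several of them were not: FASLG, TNFSF10 (TRAIL, read by 3 probes) and TNFSF15 (the ligand of TNFRSF25) were well above background on no array, and TNF on 2 F53S arrays only. The other members never well above background were the ligands CD40LG, LTB, TNFSF8, TNFSF11 and TNFSF18 and the receptors TNFRSF10C, TNFRSF13B, TNFRSF17 and TNFRSF18. A signal below this limit does not show that a transcript was absent.

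**Figure D1:**
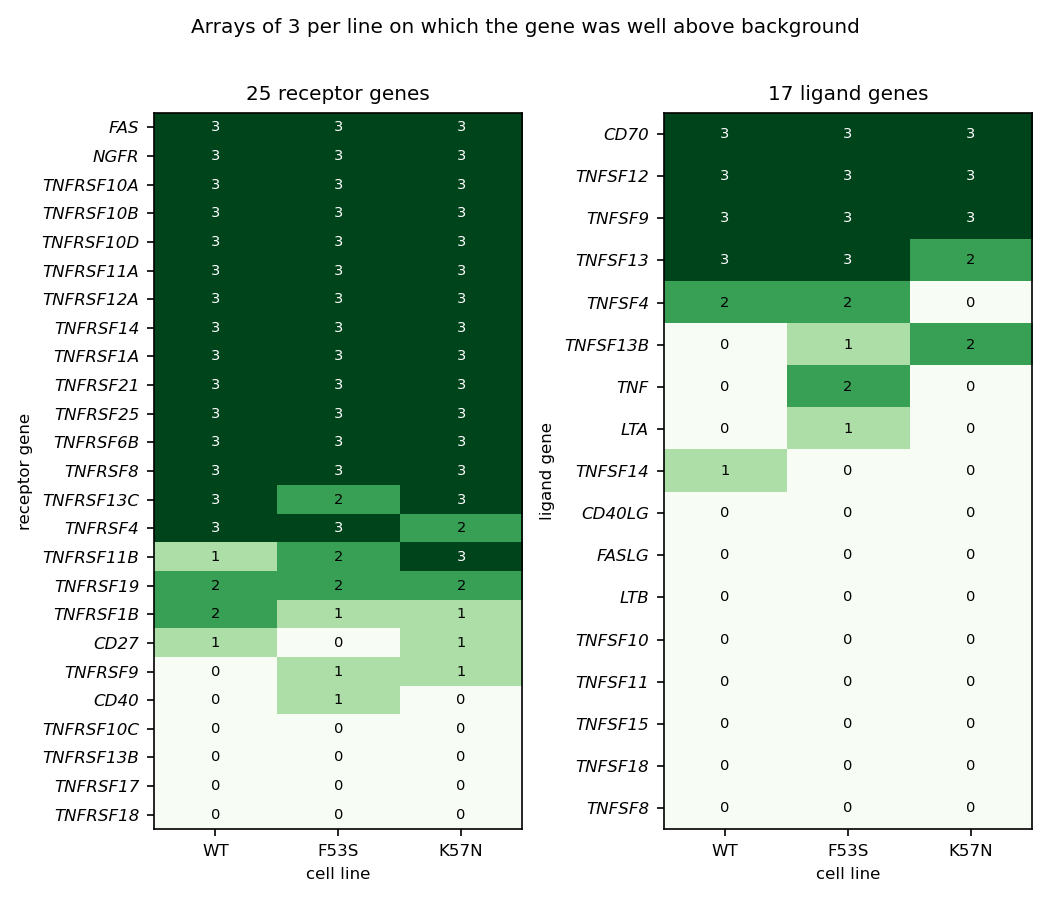
Number of arrays, of 3 per cell line, on which each of the 25 receptor genes (left) and 17 ligand genes (right) was well above background. Each row is a gene, read by its probe seen on most arrays, and each column a cell line. Most receptors were seen on all 9 arrays, whereas 8 ligands were seen on none.

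Signals below are log2 values relative to the 75th percentile of the same array. They compare 1 probe across arrays, and levels of different probes were not compared. In these bulk samples, fewer cells with a transcript and less of it per cell cannot be told apart. Replicate 1 of every line lay on slide 1, and replicates 2 and 3 on slide 2, so that slide and line were not confounded. Each comparison was therefore fitted without the slide, as the main test, and with slide as a term. In both fits p was adjusted over all 25400 probes tested. A gene was called if its difference exceeded 2-fold with an adjusted p below 0.05.

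DUSP6, a phosphatase induced by ERK, read -2.35 ± 0.87 (SD) in WT cells, 0.55 ± 0.08 in F53S cells and 3.98 ± 0.10 in K57N cells. It passed the test in K57N vs. WT (adjusted p = 0.000278) but not in F53S vs. WT (adjusted p = 0.352, and 0.0835 with the slide fitted). MAP2K1, which encodes MEK1 and whose probe may read the transgene as well as the endogenous transcript, was at 2.37 ± 0.04, 2.45 ± 0.06 and 2.85 ± 0.06 (K57N vs. WT, adjusted p = 0.135, and 0.00758 with the slide fitted). Of 9 markers of the embryonic kidney line, 7 were tested. With the slide fitted and no fold limit, 2 of these were higher in K57N cells vs. WT, among them KRT18 (0.72, adjusted p = 0.00593), and 2 lower, SIX2 (-1.23, adjusted p = 0.000556) and EYA1 (-0.70, adjusted p = 0.00644), while PAX8 and CDH1 were not well above background on all 3 arrays of any line. The summed linear signal of blood cell markers, relative to the 75th percentile, ran from 3.56 to 8.04 in WT cells, from 3.57 to 9.03 in F53S and from 3.86 to 8.54 in K57N. Of these, 6 were tested and 1 was called in K57N vs. WT, CD3D, at 3.82 higher (adjusted p = 0.0121), while PTPRC (CD45) differed by 0.24 (adjusted p = 0.982). With the slide fitted and no fold limit, CD14 was also higher (0.88, adjusted p = 0.049). A linear sum follows its brightest probes, so it can hide a change in a dimmer marker. The fibroblast sum was 0.84 to 1.40, 0.788 to 1.12 and 0.447 to 0.502, and the endothelial sum 0.295 to 0.581, 0.295 to 0.495 and 0.301 to 0.419. With the slide fitted, the 1 fibroblast marker tested, COL1A1, was called lower in K57N vs. WT (-1.20, adjusted p = 0.00327), and the endothelial marker VWF differed by -0.85 (adjusted p = 0.00579). The part of such signals in the members' differences was not tested. Arrays of slide 1 were dimmer, with 75th percentiles of 245 to 376 units beside 695 to 821 on slide 2, and 22 to 30 of the 55 member probes were well above background on an array.

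In F53S cells vs. WT, no member passed the test. Of the 20 members tested, 0 were called higher and 0 lower, against 0% of the 19211 genes tested in either direction. Without adjustment of p, the same limits were passed by 0 members in limma, and over all genes by 38 higher and 5 lower. The log2 differences of the members ran from -0.69 (TNFRSF4) to 0.37 (NGFR), with a median of 0.05 beside 0.012 over all genes. The 95% interval lay within 2-fold in both directions for 13 of the 20, and for 19 with slide as a term, the exception being TNFRSF4 (OX40, a T cell costimulatory receptor; interval -2.28 to 0.91). For the remaining members with slide as a term, a difference of more than 2-fold between F53S and WT cells lay outside the interval.

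In K57N cells vs. WT, 1 member was called higher, the decoy receptor TNFRSF11B, whose probe passed the filter through the K57N arrays alone, and none lower, beside 1.52% of all genes in the higher direction and 0.739% in the lower one. Without adjustment of p, 2 members passed as higher and 0 as lower, and over all genes 498 and 372. Once the slide was fitted, 2 members were called higher, TNFRSF11B and TNFRSF12A, beside 2.56% of all genes, and 1 lower, the ligand TNFSF13 (APRIL), beside 1.96%. Without a limit on the fold, 6 members were higher with slide as a term, where all genes gave 8.58%: TNFRSF11B, TNFRSF12A, TNFRSF10A, NGFR, TNFRSF21 and TNFSF9. The same rule gave TNFSF13 as the only lower member, where all genes gave 10.8%. The median log2 difference of the members was 0.26 and that of all genes -0.057, and 13 of 20 members (65%) lay above 0 compared with 42.9% of all genes. The members tested are those that passed the filter on dim probes, and they do not stand for all 42.

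**Figure D2:**
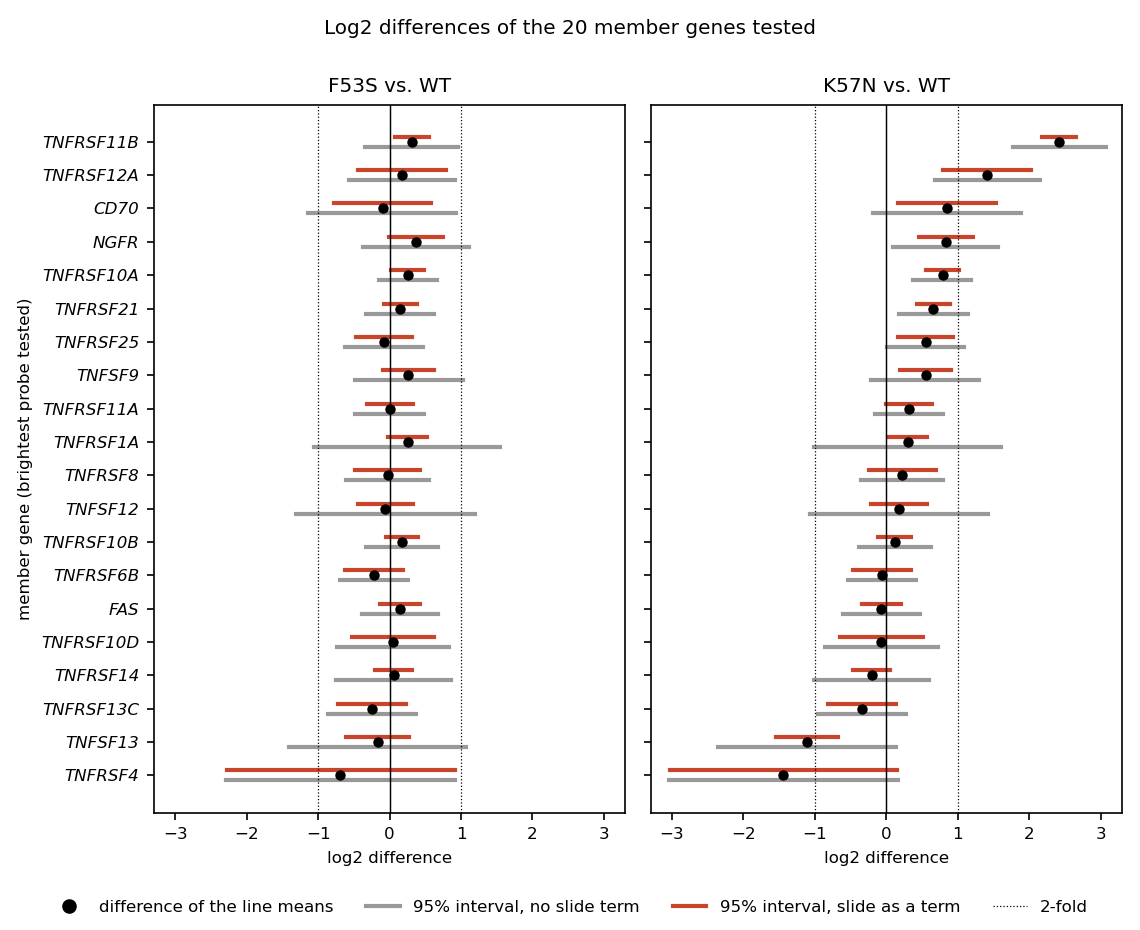
Log2 difference of each of the 20 member genes tested, F53S vs. WT (left) and K57N vs. WT (right), with points at the difference of the line means and bars for the 95% interval without the slide (gray) and with slide as a term (red). Dotted lines mark 2-fold. With the scanner's background correction, TNFRSF11B lay beyond 2-fold with its whole interval in K57N cells, and no member did so in F53S cells. The TNFRSF11B probe entered the test through the K57N arrays alone. With another background correction (normexp) its difference was under 2-fold.

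Among the decoy and soluble receptors, TNFRSF11B (osteoprotegerin), the secreted decoy receptor of RANKL that also binds TRAIL, gave its highest signals on the K57N arrays. Its probe, at chr8:119936720-119936779 on hg19, gave -5.42, -4.68 and -4.93 in WT replicates 1 to 3, -5.08, -4.58 and -4.46 in F53S, and -3.04, -2.28 and -2.44 in K57N. The 3 K57N arrays all lay above the 6 others, which overlapped each other. The probe was well above background on 3 of 3 K57N arrays, on 2 F53S arrays and on 1 WT array, so it entered the test only through the line in which it was high, and most of its WT signal is not well above background. The measured difference K57N vs. WT was 2.42 ± 0.29 (SE; limma, adjusted p = 0.00425, and 0.0258 with no filter on dim probes), and it was 2.38 on slide 1 and 2.44 on slide 2. The size and the call depended on the background correction: with normexp in place of the scanner's correction the difference was 0.89 (adjusted p = 0.35). The ligand TNFSF11 (RANKL) was well above background on no array, and its signaling receptor TNFRSF11A (RANK) had a difference of 0.32 ± 0.21 (adjusted p = 0.656).

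The other decoy receptors gave no called difference in K57N cells. TNFRSF10D, a TRAIL decoy anchored in the membrane, differed by -0.07 ± 0.34 (95% interval -0.86 to 0.72), with 1.0 on K57N replicate 1 and between 1.76 and 2.38 on the other 8 arrays. On slide 2 alone, which leaves that array out, the difference was 0.38 (adjusted p = 0.0291), against -0.96 on slide 1. TNFRSF6B (decoy receptor 3), which binds FASLG, TNFSF14 and TNFSF15, differed by -0.06 ± 0.21 (interval -0.54 to 0.42), and its other probe by -0.08. The TNFRSF6B locus also has transcripts that read through from RTEL1, which its probes may share.

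TNFRSF12A (Fn14), the receptor of the cytokine TWEAK, known as a growth factor-inducible gene, was higher in K57N cells with slide as a term. The values were 2.96, 4.0 and 3.84 in WT, 3.32, 3.85 and 4.13 in F53S, and 5.29, 4.86 and 4.88 in K57N. Every K57N array lay above every WT and F53S array. K57N exceeded WT cells by 1.41 ± 0.32, 2.66-fold, with an adjusted p of 0.0653 in the main test and of 0.0112 once the slide was fitted. It was 2.33 on slide 1 and 0.95 on slide 2, so the value with a single array per line set much of its size. Without WT replicate 1 the fit with the slide gave 1.13 (adjusted p = 0.0502), and without K57N replicate 1 it gave 1.0 (adjusted p = 0.00433), which did not pass the 2-fold limit. Leaving out F53S replicate 1 from the fit without the slide gave an adjusted p of 0.0463. Its ligand TNFSF12 (TWEAK) was well above background on all arrays and differed by 0.18 ± 0.55 (adjusted p = 0.984; interval with slide as a term -0.21 to 0.57).

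**Figure D3:**
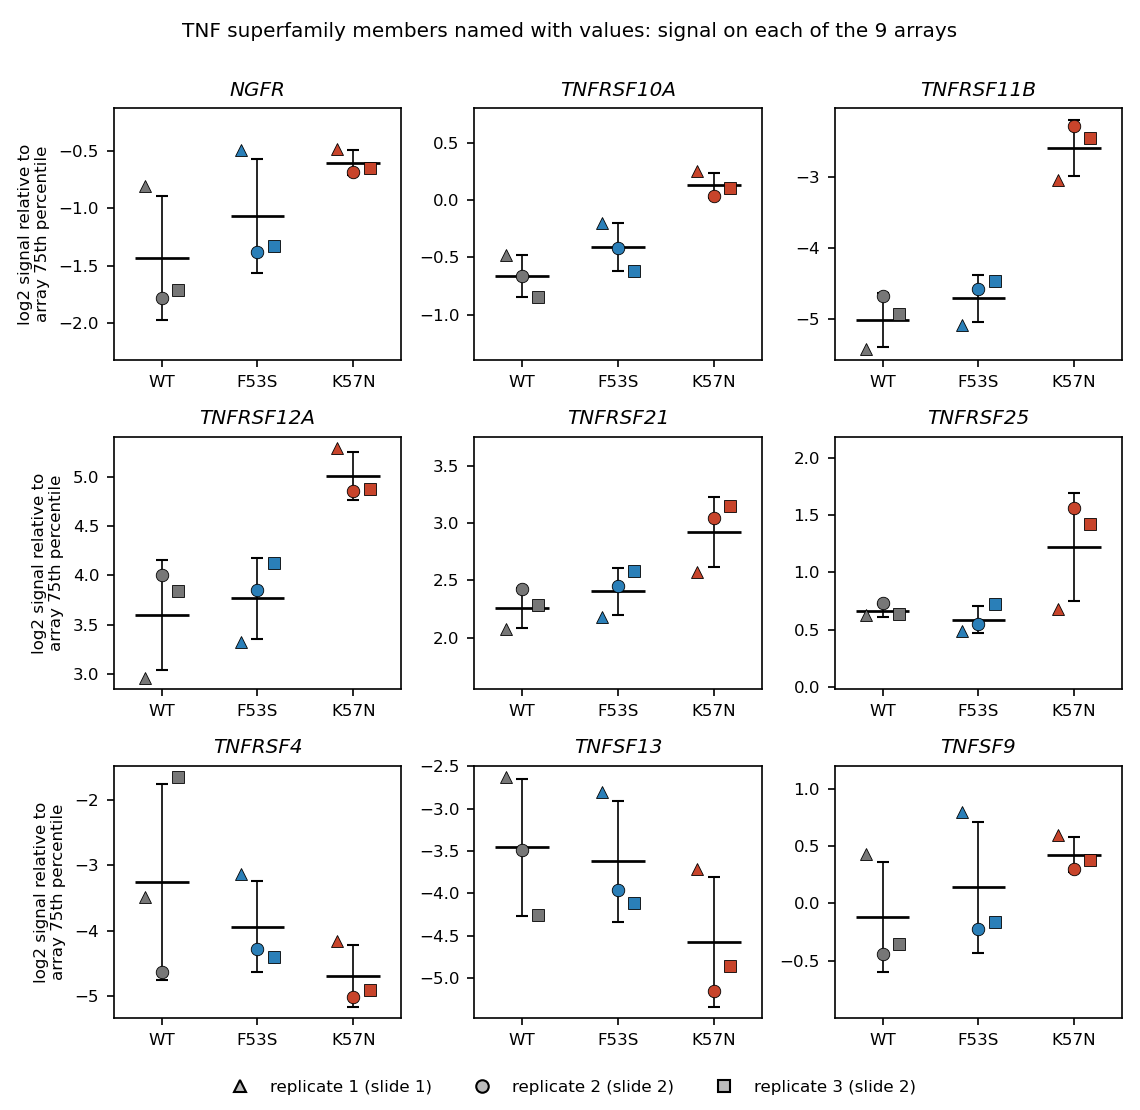
Log2 signal relative to the array's 75th percentile on each of the 9 arrays for 9 of the members described with values. Points are arrays (triangle, replicate 1 on slide 1; circle and square, replicates 2 and 3 on slide 2), lines are means and bars ± SD, n = 3 per line, and each panel has its own axis. K57N arrays stand above all others for TNFRSF10A, TNFRSF11B and TNFRSF12A, and a single WT array stands apart for TNFRSF4.

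Of the 7 receptors with a death domain, 3 were higher in K57N cells vs. WT with slide as a term, none reached 2-fold, and none was lower, where all genes gave 8.58% higher and 10.8% lower. TNFRSF10A (TRAIL receptor 1; probe at chr8:23049253-23049312 on hg19) gave -0.48, -0.66 and -0.85 in WT, -0.20, -0.42 and -0.62 in F53S, and 0.25, 0.03 and 0.10 in K57N. All K57N arrays lay above all others, and F53S arrays lay above the WT array of the same number. K57N exceeded WT cells by 0.79 ± 0.18 (adjusted p = 0.0627, and 0.00205 with the slide fitted). TNFRSF10B (TRAIL receptor 2) lay between 3.16 and 3.87 on all arrays and differed by 0.12 ± 0.22 (interval -0.38 to 0.62). The TRAIL receptor genes thus gave unlike values in K57N cells, but the difference between them was not tested.

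NGFR gave -0.81, -1.78 and -1.71 in WT, -0.49, -1.38 and -1.33 in F53S, and -0.48, -0.68 and -0.65 in K57N. The arrays of slide 1 were alike in F53S and K57N cells, and the separation came from slide 2, where the difference vs. WT was 1.08 (0.33 on slide 1). Over all arrays it was 0.83 ± 0.32 (adjusted p = 0.303, and 0.012 with the slide fitted). Without K57N replicate 1, NGFR passed the 2-fold limit with slide as a term (1.07, adjusted p = 0.000405).

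TNFRSF21, a receptor known mainly from neurons and T cells, gave 2.07, 2.42 and 2.28 in WT, 2.18, 2.45 and 2.58 in F53S, and 2.57, 3.04 and 3.15 in K57N. K57N arrays were above all WT arrays, while K57N replicate 1 fell just short of F53S replicate 3. K57N exceeded WT cells by 0.66 ± 0.21 (adjusted p = 0.18, and 0.00445 with the slide fitted). TNFRSF25, the receptor of TNFSF15, gave 0.63, 0.73 and 0.64 in WT, 0.49, 0.55 and 0.72 in F53S, and 0.68, 1.56 and 1.42 in K57N. Only the slide 2 arrays of K57N cells stood apart, and the difference of 0.55 ± 0.24 did not pass in either fit (adjusted p = 0.362, and 0.057 with the slide fitted). It passed without K57N replicate 1 in the fit with the slide (0.79, adjusted p = 0.00307) and on slide 2 alone (0.81, adjusted p = 0.00801).

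FAS and TNFRSF1A, the death receptors of FASLG and TNF, gave small differences. The brightest of 3 FAS probes differed by -0.07 ± 0.24 (interval -0.61 to 0.47), and the other probes by -0.08 and -0.03. TNFRSF1A differed by 0.30 ± 0.57, where slide 1 arrays read between 1.73 and 1.98 and slide 2 arrays between 0.24 and 0.71. Its interval was 0.02 to 0.57 once the slide was fitted (adjusted p = 0.121).

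TNFRSF4 read lower on each K57N array than on the WT and F53S arrays of the same number, by an amount that 1 WT array enlarged. It gave -3.48, -4.64 and -1.65 in WT, -3.14, -4.28 and -4.41 in F53S, and -4.16, -5.02 and -4.91 in K57N. WT replicate 3 stood well above the other 8 arrays, and WT and K57N arrays overlapped. The difference K57N vs. WT of -1.44 ± 0.70 did not pass in either fit (adjusted p = 0.454, and 0.186 with the slide fitted), and without WT replicate 3 it was -0.46 with the slide fitted (adjusted p = 0.0831). K57N vs. F53S gave -0.75 ± 0.70 (adjusted p = 0.904), which passed with the slide fitted only when WT replicate 3, an array that enters this comparison through the shared error alone, was left out (-0.75, adjusted p = 0.0164). Its ligand TNFSF4 (OX40L) passed background on 2 arrays each of WT and F53S and on 0 of K57N, and it was not tested. Of the 14 receptors with neither a death domain nor a decoy role, 6 were tested, and 4 of these, TNFRSF8 (CD30), TNFRSF11A, TNFRSF13C (the BAFF receptor) and TNFRSF14 (HVEM), differed by between -0.34 and 0.32 in K57N cells vs. WT with no adjusted p below 0.05 in either fit. The 2 tested probes of TNFRSF14 gave -0.20 and -0.62.

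Among the 4 ligands tested, 1 was called lower in K57N cells vs. WT with slide as a term, beside 1.96% of all genes. Another was higher once the fold limit was dropped, beside 8.58% of all genes. TNFSF13 (APRIL), a ligand of B cell receptors that also binds proteoglycans, gave -2.63, -3.49 and -4.25 in WT, -2.80, -3.96 and -4.11 in F53S, and -3.71, -5.15 and -4.86 in K57N. On each slide the K57N arrays were the lowest, although WT and K57N arrays overlapped across slides. The difference K57N vs. WT was -1.11 ± 0.54 (adjusted p = 0.456), and -1.07 on slide 1 and -1.13 on slide 2, while fitting the slide gave an adjusted p of 0.0074. Without WT replicate 2 the fit with the slide gave -0.90 (adjusted p = 0.0143), short of 2-fold. The probe was well above background on 2 of 3 K57N arrays and on all WT and F53S arrays. The receptors of TNFSF13, TNFRSF13B and TNFRSF17, were well above background on no array.

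TNFSF9 (4-1BB ligand), a T cell costimulatory ligand, gave 0.43, -0.44 and -0.35 in WT, 0.80, -0.22 and -0.16 in F53S, and 0.60, 0.30 and 0.38 in K57N. K57N arrays exceeded the WT array of the same number on all 3 pairs, whereas the groups overlapped across slides. Their mean exceeded that of WT by 0.55 ± 0.33 (adjusted p = 0.603). Fitting the slide gave an adjusted p of 0.045, and a block for replicate number one of 0.0719. With the slide fitted, TNFSF9 did not pass without any 1 of the WT arrays, F53S replicate 2 or 3 or K57N replicate 2 or 3 (adjusted p of 0.0647 to 0.128). Without K57N replicate 1 the difference was larger (0.76, adjusted p = 0.00216), as on slide 2 alone (0.74, adjusted p = 0.00484). Its receptor TNFRSF9 was well above background on 1 F53S and 1 K57N array. CD70, the ligand of CD27, gave 0.30, -0.96 and 0.28 in WT, 0.57, -0.61 and -0.64 in F53S, and 1.21, 0.37 and 0.60 in K57N. All K57N arrays lay above all WT arrays, with a difference of 0.85 ± 0.45 that did not pass in either fit (adjusted p = 0.52, and 0.0833 with the slide fitted). Without WT replicate 3, CD70 passed with slide as a term (1.23, adjusted p = 0.00683).

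In K57N cells vs. F53S, a comparison that shares the K57N arrays with the one vs. WT, 1 member was called higher and none lower, beside 0.953% and 0.245% of all genes. The member was TNFRSF11B, which entered the test through the K57N arrays alone, so this call is no independent repeat of the one vs. WT. The fit with the slide called 2 members higher (TNFRSF11B and TNFRSF12A) and 0 lower, beside 1.88% and 1.1%. Without a limit on the fold, that fit gave 5 higher, TNFRSF10A, TNFRSF11B, TNFRSF12A, TNFRSF21 and TNFRSF25, beside 5.84% of all genes, and TNFSF13 lower, beside 7.53%. TNFRSF11B differed by 2.12 ± 0.29 (adjusted p = 0.0126), which did not pass without F53S replicate 2 or 3 or K57N replicate 2 or 3 (adjusted p of 0.0585, 0.0538, 0.071 and 0.0771). It also did not pass with normexp (0.77, adjusted p = 0.636) or with no filter on dim probes (adjusted p = 0.078). TNFRSF12A differed by 1.24 ± 0.32 (adjusted p = 0.157, and 0.0256 with the slide fitted), and with slide as a term it was not called without F53S replicate 1 (1.11, adjusted p = 0.111), F53S replicate 2 (1.21, adjusted p = 0.08), F53S replicate 3 (1.37, adjusted p = 0.0516) or K57N replicate 1 (0.83, adjusted p = 0.0116). TNFSF13 differed by -0.94 ± 0.54 (adjusted p = 0.69, and 0.0197 with the slide fitted), which did not pass with the slide fitted and F53S replicate 1, 2 or 3 or K57N replicate 2 left out (adjusted p of 0.0743, 0.0704, 0.0564 and 0.0647). TNFRSF21 likewise did not pass without F53S replicate 1, 2 or 3 or K57N replicate 2 or 3 (adjusted p of 0.0506 to 0.0692), and TNFRSF10A without F53S replicate 3 (0.0603). TNFRSF25 differed by 0.63 ± 0.24, with an adjusted p of 0.048 with slide as a term and 0.0795 with replicate number as a block, and leaving out 1 array moved it between 0.00361 (without K57N replicate 1, difference 0.87) and 0.136 (without F53S replicate 2). Without K57N replicate 1, NGFR (0.70, adjusted p = 0.00245) and TNFSF9 (0.50, adjusted p = 0.0125) also passed with the slide fitted. CD70 differed by 0.95 (adjusted p = 0.0734 with the slide fitted). It passed in that fit without WT replicate 2 (adjusted p = 0.0485) or WT replicate 3 (adjusted p = 0.0128), arrays that enter this comparison through the shared error alone.

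**Figure D4:**
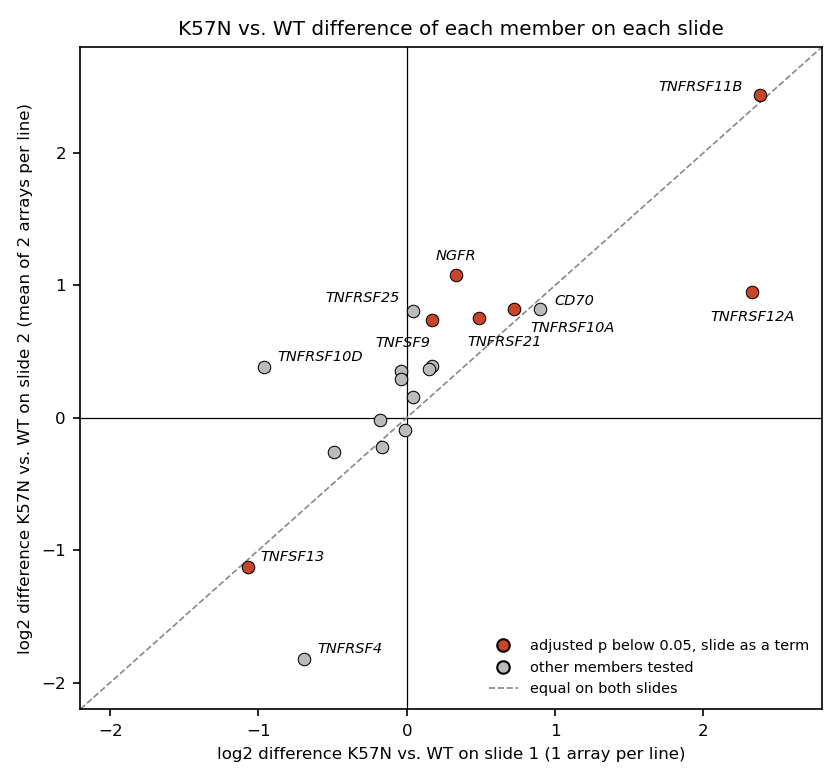
Log2 difference K57N vs. WT of each of the 20 member genes tested on slide 1 (x axis, 1 array per line) and on slide 2 (y axis, mean of 2 arrays per line). Red points have an adjusted p below 0.05 with slide as a term, and the dashed line marks equal values. TNFRSF11B and TNFSF13 lay close to the line, TNFRSF12A was larger on slide 1, and NGFR and TNFRSF25 were larger on slide 2.

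Of 35 adaptors, kinases, caspases and NF-kB subunits, 33 were tested and 0 were called in K57N cells vs. WT, beside 1.52% of all genes higher and 0.739% lower, with a median difference of 0.02. Once the slide was fitted, 1 was called higher (2.56% of all genes) and 0 lower (1.96%). It was RELB, the NF-kB subunit of the noncanonical pathway (mean ± SD of 0.68 ± 0.51, 0.90 ± 0.52 and 2.35 ± 0.45 in WT, F53S and K57N). Its difference was 1.67 ± 0.36 (adjusted p = 0.0579, and 2.2e-05 with the slide fitted). MAP3K14 (NIK), the kinase of that pathway, differed by 0.67 ± 0.14 (adjusted p = 0.0456 without the slide), which is under 2-fold. In the fit with the slide and no limit on the fold, 6 of the 33 were higher and 4 lower, beside 8.58% and 10.8% of all genes. The higher ones included MLKL, the effector of necroptosis (0.99, adjusted p = 0.00146), and MAP3K5 (ASK1; 0.81, adjusted p = 0.00597). The lower ones included the NF-kB subunit REL (-0.68, adjusted p = 0.00611) and RBCK1 (HOIL-1, of the linear ubiquitin ligase; -0.79, adjusted p = 0.0223). A block for replicate number in place of the slide left 5 higher and 2 lower. In F53S cells vs. WT none of the 33 was called in either fit, and neither was any of the 19211 genes tested.

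Of 25 genes known to respond to NF-kB, 17 were tested, and 1 was called higher and 0 lower in K57N cells vs. WT, beside 1.52% and 0.739% of all genes. ICAM1, an adhesion molecule whose probe was well above background on 7 of the 9 arrays, differed by 2.74 ± 0.35 (adjusted p = 0.00628), from -4.54 ± 0.29 (SD) in WT to -3.97 ± 0.48 in F53S and -1.80 ± 0.61 in K57N. Its WT signal was dim, and its difference was not followed under another background correction or filter. RELB was called too in the fit with the slide (2.56% of all genes higher), and 7 of the 17 were higher with no limit on the fold while 0 were lower, beside 8.58% and 10.8% of all genes. The median difference was 0.38, and -0.057 over all genes. The 7 included TNFAIP2 (0.86, adjusted p = 0.00578) and TNFAIP3 (A20, an inhibitor of NF-kB; 0.79, adjusted p = 0.0172). For this list a block for replicate number in place of the slide left 5 higher, without NFKB2 (adjusted p = 0.0602) and NFKBIB (adjusted p = 0.0784). NFKBIA, the inhibitor IkB-alpha, differed by -0.13 ± 0.21 (adjusted p = 0.949). CXCL2, a neutrophil chemokine, differed by 1.08 ± 0.33, with all K57N arrays above all WT arrays, and did not pass in either fit (adjusted p = 0.165, and 0.0511 with the slide fitted). The response genes VCAM1 and IL1B were well above background on no array. Of 5 superfamily genes that the naming rule left out, 4 were tested and none was called in K57N cells in either fit: LTBR (0.31), EDA (-0.73), EDA2R (-0.50) and RELT (0.56). Without the fold limit all 4 passed with the slide fitted (adjusted p of 0.0288, 0.00342, 0.00883 and 0.00432; 8.58% of all genes higher, 10.8% lower), and with a replicate block LTBR did not (0.0622). EDAR was never well above background.

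**Figure D5:**
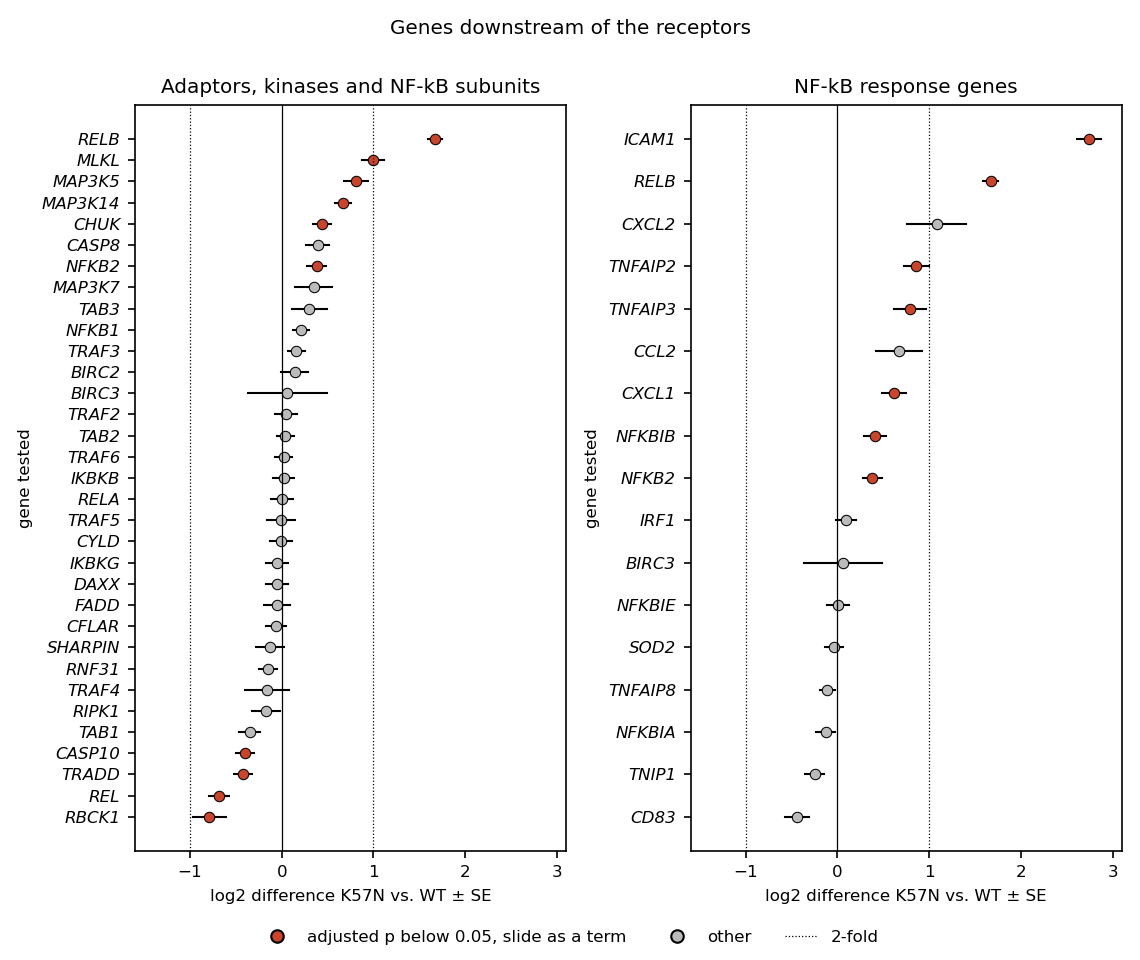
Log2 difference K57N vs. WT (x axis, point ± SE of the fit with slide as a term) of the 33 adaptors, kinases, caspases and NF-kB subunits tested (left) and the 17 NF-kB response genes tested (right), with RELB, NFKB2 and BIRC3 in both. Red points have an adjusted p below 0.05 with slide as a term, and dotted lines mark 2-fold. ICAM1, RELB and CXCL2 lay beyond 2-fold, and CXCL2 did not pass the test.

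RefSeq promoters on GRCh38.p14, 250 bases before to 50 after the start of transcription, were held for 27 of the 42 members and were searched on both strands for binding motifs of factors downstream of ERK and of the receptors. The AP-1 motif TGANTCA occurred in 6 of the 27 and in 7.8% of all 27305 promoters, the ETS motif CCGGAAG in 1 and in 10.7%, and an NF-kB motif in 2 and in 1.9%. The windows of FAS and TNFRSF8, which hold AP-1 and were tested, and of TNFRSF9 and LTB, which hold NF-kB, are shown on the strand of the gene with the motif in capitals.
FAS, AP-1, chr10:88990548-88990577, plus strand: caagttgcTGAATCAatggagccctcccca
TNFRSF8, AP-1, chr1:12063293-12063322, plus strand: gtgccttttccTGAGTCAtctctgcacgtg
TNFRSF9, NF-kB, chr1:7940894-7940923, minus strand: gagctgtggtGGGAATTTCCcatgagaccc
LTB, NF-kB, chr6:31582492-31582521, minus strand: aggggtgtgcGGAAAGTCCCagccaggtgt
None of the motifs occurred in these windows of TNFRSF21, TNFRSF25, TNFSF13 or TNFSF9. The promoters of TNFRSF11B, TNFRSF12A, TNFRSF10A, NGFR, TNFRSF4 and CD70 were not searched. FAS and TNFRSF8 differed by -0.07 and 0.22 in K57N cells vs. WT. A match is a description of the letters and not of binding.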

How the data were processed

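Gene expression was measured with Agilent SurePrint G3 Human GE 8x60K v2 arrays and 1 dye in 9 samples. The authors deposited scanner files whose processed signal is an intensity that Agilent Feature Extraction 10.10.1.1 made by background subtraction and detrending. The table they deposited holds log2 values, equal to the log2 of that intensity less a constant per array within 0.02 for 100% of probes. The normalization behind it is not given in the sources used here. Here log2 intensity was set relative to each array's 75th percentile, taken without control spots. Outlier spots (278 to 501 per array) were left out and repeated spots averaged. A gene was taken from its brightest tested probe, and 28173 probes were named through RefSeq accessions. limma 3.58.1 in R 4.3.3 fitted 1 mean per line, with Benjamini-Hochberg adjustment over the probes tested. Figures were drawn in Python 3.11.15 with matplotlib 3.10.9. The number of arrays limits the precision.

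The main test did not use the pairing of same-numbered arrays, which entered a fit only as the block for replicate number. Deviations of these arrays from the line means correlated over probes with r from 0.34 to 0.87. Arrays with the same number also shared a slide, and its part in these correlations was not tested. For K57N vs. WT the median SE over all genes was 0.291 in the main test and 0.134 with the slide fitted. p-values measure the spread between experiments on 1 line each.

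The members and gene lists were chosen with earlier results of these data known. Values on every array are given for tested members with an adjusted p below 0.05 in either fit or a log2 difference beyond 1. They are also given for CD70, which was chosen after its values were seen. The ligands or receptors that pair with these members are given by a difference, a range or the arrays well above background. The fits were also run on simulated data, and the outcome is not given here. The alternatives were quantile normalization, normexp (offset of 50), a filter for all 9 arrays or none, averaging a gene's probes, fits of 2 lines, replicate and slide blocks, slide 2 alone, the methods' t-test, the deposited log2 table, no fold limit, and each array left out.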

Additional observations from a re-analysis of the deposited data

How the results depend on the processing

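Of 558 values of the 9 named members under the alternatives, 501 stayed on the same side of the threshold in the same direction, 42 became significant, 9 lost significance, 6 changed the sign of a difference that was not significant, and 0 reversed a called one. These values pool all 3 comparisons. In F53S vs. WT no gene at all was called in the fit without or with the slide. The 501 therefore does not measure how stable the K57N comparisons are. For members called higher in K57N cells vs. WT, 1 in the main fit, the replicate block and slide as a term each gave 2. Slide 2 alone and the methods' t-test without adjustment also gave 2. The genes were TNFRSF11B and TNFRSF12A, but TNFRSF11B and NGFR on slide 2 alone. Slide as a term without a fold limit, chosen after seeing the data, gave 6. Normexp, the filter for all 9 arrays and the adjusted t-test gave 0. Leaving out 1 array gave 1 to 2 without the slide and 1 to 3 with it. For members called lower, 0 in the main fit, the replicate block, slide as a term, slide 2 alone and slide as a term without a fold limit each gave 1, TNFSF13, and fits with 1 array left out gave 0 without the slide and 0 to 1 with it, TNFSF13 in all but the one without WT replicate 2. For K57N cells vs. F53S, 1 higher in the main fit became 2 with the replicate block, slide as a term or the t-test without adjustment, and 5 with slide as a term and no fold limit. It became 0 with normexp, no filter, the filter for all 9 arrays or the adjusted t-test. Leaving out 1 array gave 0 to 1 without the slide and 1 to 2 with it. Members called lower there, 0 in the main fit, became 1 with slide as a term and no fold limit, and with 1 array left out were 0 without the slide and 0 to 1 with it (TNFSF13, without K57N replicate 3). F53S vs. WT gave 0 in both directions under every alternative run, those with 1 array left out included. Over all genes it gave 0% as well in the main fit and with slide as a term, there also without a fold limit. Shares of all genes under the other alternatives are not given here. The filter for all 9 arrays removes TNFRSF11B by its construction, and the cause of the other changes was not tested. The fits with the slide and 1 array left out were also chosen after seeing the data. A dim probe such as that of TNFRSF11B is limited by its signal over background.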

Other observations

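Single arrays stood apart for some member probes that were not tested. TNFSF13B (BAFF) read -0.63 on K57N replicate 2 and between -5.65 and -3.69 on the other 8 arrays. A second TNFSF12 probe, at chr17:7453452-7453511 on hg19, read -2.89 on K57N replicate 3, its only value well above background. TNFSF14 (LIGHT) was well above background on WT replicate 2 only, at -4.45.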
